A study of Mus musculus with 10 samples.

Results

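The Neurogenins, *Eomes*, *Insm1* and the NeuroD genes are transcription factors that follow each other as a cortical progenitor becomes a glutamatergic neuron. The 9 genes described here were taken by name from the table of counts, in the order *Neurog1*, *Neurog2*, *Eomes*, *Insm1*, *Neurod1*, *Neurod4*, *Neurod2* and *Neurod6* from progenitor to neuron, with *Bhlhe40* last as a bHLH repressor that is not a step of the series. All 9 were among the 14300 genes of the table, and they were chosen by name rather than by a threshold on these values. Their RNA was compared between TdTomato+ and TdTomato− cells of *Grem1creERT; Rosa26LSLTdtomato* embryos.

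The embryos were C57BL/6J mice. Both populations came from embryos that carried the *Grem1* transgene for the tamoxifen-inducible CreERT and the Cre-dependent TdTomato allele at Rosa26, and in both the dams had received tamoxifen 24 h before the cells were collected in mid-gestation. Recombination needs both CreERT and tamoxifen and is passed to daughter cells. TdTomato− cells are all live cells without it, including any *Grem1*-expressing cell in which it did not occur. The gate was set on cre− littermates, and no library of an untreated or cre− embryo was analysed here. The labels name the brain as the tissue, whereas the methods of the study name the dissected dorsal telencephalon with the meninges removed. Each of 5 mice, which carry the numbers 2 to 6, gave a library of either population, 10 libraries in all.

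The Neurogenins are basic helix-loop-helix (bHLH) proteins that bind the DNA motif CANNTG, the E-box, as dimers with the E proteins *Tcf3*, *Tcf4* and *Tcf12*. In the dorsal telencephalon they commit radial glia to the neuronal fate and raise Notch ligands, while the Hes, Hey and Id proteins hold them back. *Eomes*, also known as Tbr2, is a T-box factor of intermediate progenitors, the dividing cells between radial glia and neurons. *Insm1* is a zinc-finger repressor of newly formed intermediate progenitors, *Neurod1* and *Neurod4* are bHLH activators at the passage from progenitor to neuron, and *Neurod2* and *Neurod6* are bHLH activators of postmitotic pyramidal neurons.

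The members did not move together, so the stretches next to their start sites are shown for a pair that fell (*Neurog2* and *Eomes*) and for the pair that rose (*Neurod2* and *Neurod6*). The sequences are those of RefSeq on GRCm38.p6, from a table in which 7 of the 9 members were matched, with 8 windows because *Neurod4* had 2 start sites. The start sites of *Insm1* and *Bhlhe40* were not analysed here. The 250 bases before each start were searched on both strands for CANNTG and, after the sequences had been seen, for TATATAA. Capitals mark the matches below, each sequence is written 5′ to 3′ on the strand of its gene, and bases inside the annotated gene body were left off.

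*Neurog2*, chr3:127632886-127633134, plus strand: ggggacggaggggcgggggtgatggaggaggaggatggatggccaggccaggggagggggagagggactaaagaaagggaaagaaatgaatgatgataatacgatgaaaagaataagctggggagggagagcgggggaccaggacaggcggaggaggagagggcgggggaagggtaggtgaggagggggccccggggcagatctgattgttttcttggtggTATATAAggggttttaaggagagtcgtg

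*Eomes*, chr9:118477939-118478188, plus strand: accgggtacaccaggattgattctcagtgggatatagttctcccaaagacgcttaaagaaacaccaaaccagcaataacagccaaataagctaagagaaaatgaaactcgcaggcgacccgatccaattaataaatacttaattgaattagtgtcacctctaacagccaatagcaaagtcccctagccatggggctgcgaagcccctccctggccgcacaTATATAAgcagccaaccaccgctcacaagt

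*Neurod2*, chr11:98329649-98329895, minus strand: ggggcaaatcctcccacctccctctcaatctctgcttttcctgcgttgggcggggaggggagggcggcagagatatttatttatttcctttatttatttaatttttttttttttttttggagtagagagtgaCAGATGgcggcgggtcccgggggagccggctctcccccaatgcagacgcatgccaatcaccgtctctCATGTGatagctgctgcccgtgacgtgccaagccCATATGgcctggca

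*Neurod6*, chr6:55681264-55681513, minus strand: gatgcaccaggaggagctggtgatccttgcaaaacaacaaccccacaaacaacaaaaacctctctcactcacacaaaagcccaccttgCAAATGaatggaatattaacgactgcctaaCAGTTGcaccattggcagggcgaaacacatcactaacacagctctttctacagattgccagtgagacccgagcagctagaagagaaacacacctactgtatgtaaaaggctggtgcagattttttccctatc

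The *Neurod2* window held CANNTG at 3 places, beginning 118, 51 and 17 bases before the start site, and the match at 118 was CAGATG and that at 17 was CATATG. The *Neurod6* window held CANNTG at 2 places, at 162 and 132 bases. The *Neurod1* window held 1, a CATATG at 242 bases, and the windows of *Neurog1*, *Neurog2*, *Eomes* and *Neurod4* held no match. Of all 32851 windows of the same length, 66.2% held CANNTG, 14.4% held CAGATG and 3.46% held CATATG, so a CANNTG match is common and a CATATG match is rarer. The form CAGCTG was in 13% of all windows and in no window of a member. TATATAA began 29 bases before the start in *Neurog2*, 30 in *Eomes* and 31 in *Neurod1*, and was in 3.04% of all windows. The *Neurod1* match lay inside the annotated gene body, as the start site used for it is downstream of the annotated start. These matches are letters in a window and were not tested as binding sites.

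Total counts ranged from 23429034 to 27286180 per library, and a count of 3 or less, taken as the floor, was 0.104 to 0.136 CPM (counts of a gene relative to the TMM-scaled total of its library). This floor covers counting error only. *Grem1* itself was higher in TdTomato+ cells in 5 of 5 mice, at 63.3 ± 3.10 against 6.11 ± 0.731 CPM (mean ± SD, n = 5 in each population). Of markers fixed for other cells, all 6 of 6 radial glia markers were lower in TdTomato+ libraries, with summed levels of 127 to 174 against 1521 to 1789 CPM, as were 6 of 6 proliferation markers, at 53.6 to 87.0 against 1502 to 1820 CPM. The 8 of 8 GABAergic markers, which belong to neurons of the ventral telencephalon, stood at 45.7 to 69.6 against 1365 to 1747 CPM. Summed levels were 0.680 to 1.31 against 10.9 to 51.3 CPM for 4 measured microglia markers, 1.18 to 25.7 against 74.2 to 258 CPM for 5 erythroid markers, 1.67 to 3.95 against 10.7 to 17.7 CPM for 4 endothelial and pericyte markers, 0.564 to 1.09 against 1.88 to 5.29 CPM for 2 meningeal markers and 150 to 185 against 275 to 471 CPM for 7 Cajal-Retzius markers. Neuron markers were higher in TdTomato+ libraries for 5 of 5 genes, at 8674 to 9588 against 4722 to 5404 CPM, although *Rbfox3* was not called with library size alone (adjusted p = 0.0689). In bulk samples, fewer cells of a type and less RNA per cell cannot be told apart, and the part of these cell types in the results was not tested.

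Across the series, 2 members were higher and 7 were lower in TdTomato+ cells by edgeR's quasi-likelihood F-test with the mouse as a block, at a Benjamini-Hochberg adjusted p of 0.05 or less over 14300 genes. The background was broad: 37.9% of all genes were called higher and 39.4% lower, 77.3% in either direction, so a call alone says little about a member. With library size alone in place of TMM the genes called were 4110 higher and 7123 lower, against 5424 and 5632, and the members' calls were the same. With the further threshold of an absolute log2 fold change of 2, the members that were DEG (differentially expressed genes) were *Neurog1*, *Neurog2*, *Eomes*, *Insm1* and *Neurod4*, 5 of 9, all lower, where 9.74% of genes were DEG lower and 3.2% DEG higher. No member was DEG higher by edgeR or by DESeq2, although *Neurod2* and *Neurod6* passed the test on adjusted p by both. The median log2 fold change of the 9 members was −2.61, against −0.01 for all genes. The CPM ranges of the populations did not overlap for any of the 9, as for 61.6% of all genes, and each member moved the same way in 5 of 5 mice, as did 76.1% of all genes.

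**Figure D1:**
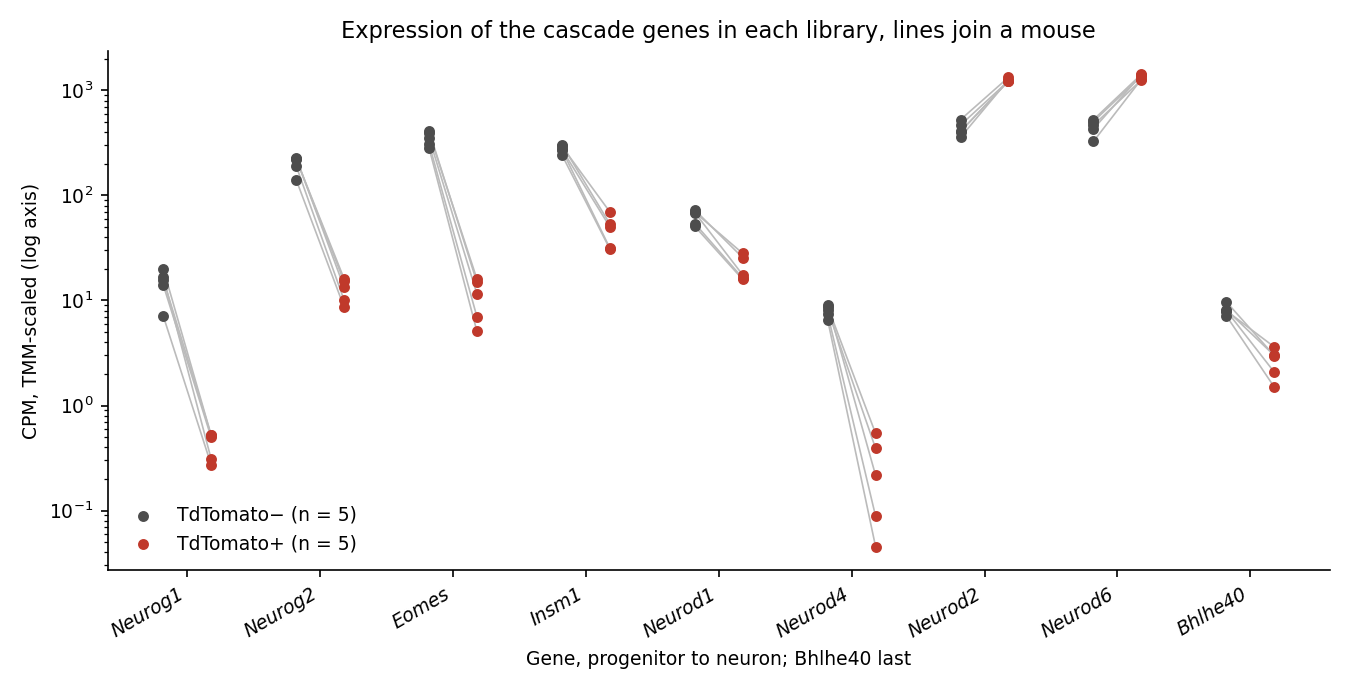
Expression of the 9 genes in each library, as TMM-scaled CPM on a log axis, with 5 TdTomato− libraries in grey and 5 TdTomato+ libraries in red; lines join the libraries of a mouse. All lines fall except those of Neurod2 and Neurod6, and Neurod4 spreads most among TdTomato+ libraries, from 0.0453 to 0.542 CPM.

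The Neurogenins stood at the start of the series and were both low in TdTomato+ cells. *Neurog1* (chromosome 13, 56250478 to 56252163 on GRCm38, minus strand) was at 7.08, 19.9, 16.6, 15.8 and 14.0 CPM in TdTomato− libraries of mice 2 to 6, and at 0.272, 0.520, 0.309, 0.522 and 0.497 CPM in TdTomato+ libraries. Mouse 2 was the lowest in both populations, and even its TdTomato− library lay far above every TdTomato+ library. These TdTomato+ levels were 6 to 12 reads per library, above the floor of 3, against 181 to 577 reads in TdTomato− libraries. On the log2 scale the change was −5.09 (s.e. 0.153, adjusted p = 7.28e-09), so that a TdTomato+ library held 1.87% to 3.84% of the *Neurog1* CPM of its TdTomato− partner.

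*Neurog2* (chromosome 3, 127633135 to 127635631, plus strand), the Neurogenin that predominates in the dorsal telencephalon, was at 141, 228, 191, 222 and 222 CPM in TdTomato− libraries. In TdTomato+ libraries it was at 8.66, 13.4, 10.1, 15.2 and 16.1 CPM. Mouse 2 was again the lowest in both populations, and the populations were well apart. TdTomato+ over TdTomato−, the log2 ratio was −4.00 (s.e. 0.0721, adjusted p = 1.26e-09), and by unadjusted p the gene ranked 23 of 14300, ahead of all other members. The share kept in TdTomato+ cells varied little, from 5.28% to 7.26% of the partner library. Per kilobase of exonic length, *Neurog2* exceeded *Neurog1* by a median of 24.1 times in TdTomato+ libraries and 10.7 times in TdTomato− libraries, and this ratio was higher in TdTomato+ cells in 5 of 5 mice. The ratios of members within a library are descriptions, without a test.

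Genes that work with the Neurogenins were lower too. All 3 E proteins fell. On the log2 scale, *Tcf12*, which was DEG, fell by 2.52, *Tcf3* by 1.83 and *Tcf4* by 0.82, which left *Tcf4* as the most abundant, at 577 ± 118 CPM in TdTomato+ libraries against 1005 ± 122 in TdTomato− libraries. Of 9 measured genes of the Hes, Hey and Id families, most of which oppose proneural factors, 8 fell and 6 of these were DEG, with a median log2 fold change of −3.46. The Notch effectors *Hes5* and *Hes1* fell most, with log2 fold changes of −5.29 and −4.63. *Hes6*, which counteracts *Hes1* and promotes neuronal differentiation, fell by 1.27 on the log2 scale. *Id2*, an inhibitor that sequesters E proteins, rose, with a fitted log2 difference of 1.57 (s.e. 0.055, adjusted p = 1.53e-08), from 109 ± 21.2 to 324 ± 47.5 CPM.

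All 10 genes listed as targets of proneural factors fell, 4 of them as DEG, with a median log2 fold change of −1.74. *Mfng*, which modifies Notch, fell most, at −5.04, from 88.5 ± 4.38 to 2.70 ± 0.470 CPM. *Btg2*, an antiproliferative gene of neurogenic divisions, was at −2.69 and *Gadd45g*, a stress-response gene of newborn neurons, at −2.54. The Notch ligands *Dll1* and *Dll3* were at −1.88 and −1.61. The corepressor gene *Cbfa2t2* and the cell cycle inhibitor *Cdkn1c* fell least, at −0.82 and −0.42.

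Other neural bHLH genes were mostly lower. Of 13 listed, 8 were measured, 6 fell and 5 of these were DEG, with a median log2 fold change of −2.91. *Olig2* and *Olig1*, which act in ventral progenitors and oligodendrocyte precursors, were at −6.09 and −4.72, the latter with 1 to 19 reads in TdTomato+ libraries. *Nhlh1* and *Nhlh2*, which are expressed in newborn neurons, were at −2.71 and −1.27. The calls did not include *Atoh8*, at 0.14 (adjusted p = 0.57), which was at −0.04 with library size alone, or *Bhlhe22*, at 0.23 (s.e. 0.197, adjusted p = 0.317). *Bhlhe22*, a factor of postmitotic cortical neurons, varied between TdTomato+ libraries, at 144 ± 61.2 CPM against 116 CPM (SD 25.01).

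*Eomes* (chromosome 9, 118478212 to 118486132, plus strand) fell by nearly as much as *Neurog1*. It was at 309, 354, 282, 412 and 393 CPM in TdTomato− libraries of mice 2 to 6, and at 6.98, 11.5, 5.08, 14.9 and 16.0 CPM in TdTomato+ libraries. Mouse 4 was the lowest and mice 5 and 6 the highest in both populations, which did not overlap. The fitted log2 difference was −5.07 (s.e. 0.159, adjusted p = 8.81e-09), and TdTomato+ libraries kept 1.80% to 4.07% of the partner's level. Of the *Eomes* exonic length, 2.84% overlaps an annotated gene on the opposite strand, and the strand used in counting is not given in the sources used here.

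Other genes of intermediate progenitors also fell, 7 of 7, of which 5 were DEG. Their median log2 fold change was −2.64, against −5.07 for *Eomes*. *Tfap2c*, a transcription factor of basal progenitors, was lowest at −4.97, from 50.6 ± 6.35 to 1.63 ± 0.581 CPM, and *Mfap4*, an extracellular matrix gene, was at −4.35. *Pam*, a peptide-amidating enzyme, was at −1.97 and the semaphorin *Sema3c* at −1.27.

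*Insm1* (chromosome 2, 146221921 to 146225020, plus strand) fell less than *Eomes*. It was at 274, 272, 243, 305 and 293 CPM in TdTomato− libraries, and at 50.2, 31.5, 31.0, 53.6 and 69.8 CPM in TdTomato+ libraries. The TdTomato− libraries were close to each other, whereas mouse 6 had more than 2 times the level of mice 3 and 4 among TdTomato+ libraries. On the log2 scale the change was −2.61 (s.e. 0.138, adjusted p = 2.1e-07), and 11.6% to 23.8% of the partner's level was kept. Per kilobase, the median ratio of *Insm1* to *Eomes* was 1.03 in TdTomato− libraries and 5.85 in TdTomato+ libraries, higher in TdTomato+ cells in 5 of 5 mice.

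Genes related to *Insm1* went both ways. Among 7 neuronal zinc-finger genes, 3 rose, 3 fell and 1 was not called. The paralog *Insm2* was at −3.35, with 1 to 7 reads in TdTomato+ libraries, and *Myt1*, which promotes neuronal differentiation, at −1.19, whereas *Myt1l*, its relative in postmitotic neurons, rose by 1.26 and the neuronal repressor *Scrt1* by 0.53. Of the 5 corepressors that *Insm1* and related SNAG-domain proteins recruit, *Hdac1* fell by 1.45, *Rcor2* by 1.14 and *Rcor1* by 0.19. *Kdm1a* was at −0.08 (adjusted p = 0.0936) and *Hdac2* at 0.04 (adjusted p = 0.406), and with library size alone both were called lower, at −0.26 and −0.14, as was *Kdm1a* with upper-quartile normalization, at −0.10 (adjusted p = 0.0493). The call of *Rcor1* was lost without the replicate block, at an adjusted p of 0.0801.

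*Neurod1* (chromosome 2, 79452521 to 79456751, minus strand) was the member of the middle of the series that fell least. It was at 50.7, 68.7, 54.0, 69.1 and 72.7 CPM in TdTomato− libraries, and at 15.9, 17.5, 16.3, 28.1 and 25.5 CPM in TdTomato+ libraries. Mice 5 and 6 were the highest in both, and the populations did not overlap. TdTomato+ over TdTomato−, the log2 ratio was −1.63 (s.e. 0.089, adjusted p = 2.57e-07), short of the DEG threshold, with 25.5% to 40.6% of the partner's level kept. Per kilobase, the median ratio of *Neurod1* to *Eomes* was 2.88 in TdTomato+ libraries and 0.282 in TdTomato− libraries, so that their order was the reverse in the 2 populations. Of the *Neurod1* exonic length, 13% overlaps other annotated genes, *Cerkl* on the same strand and *Gm26755* on the opposite strand, and neither was among the 14300 genes.

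*Neurod4* (chromosome 10, 130268152 to 130280240, minus strand) was nearly absent from TdTomato+ cells. Its counts were 1, 5, 2, 9 and 12 reads in TdTomato+ libraries of mice 2 to 6, so that mice 2 and 4 were at or under the floor, against 166, 262, 184, 205 and 250 reads in TdTomato− libraries. Mice 5 and 6 were again highest among TdTomato+ libraries, and all TdTomato− libraries lay between 6.49 and 9.05 CPM. The fitted log2 difference was −4.95 (s.e. 0.3, adjusted p = 5.14e-07), with the largest standard error of the 9 members. It ranged from −5.36 to −4.75 when each mouse was left out in turn.

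**Figure D2:**
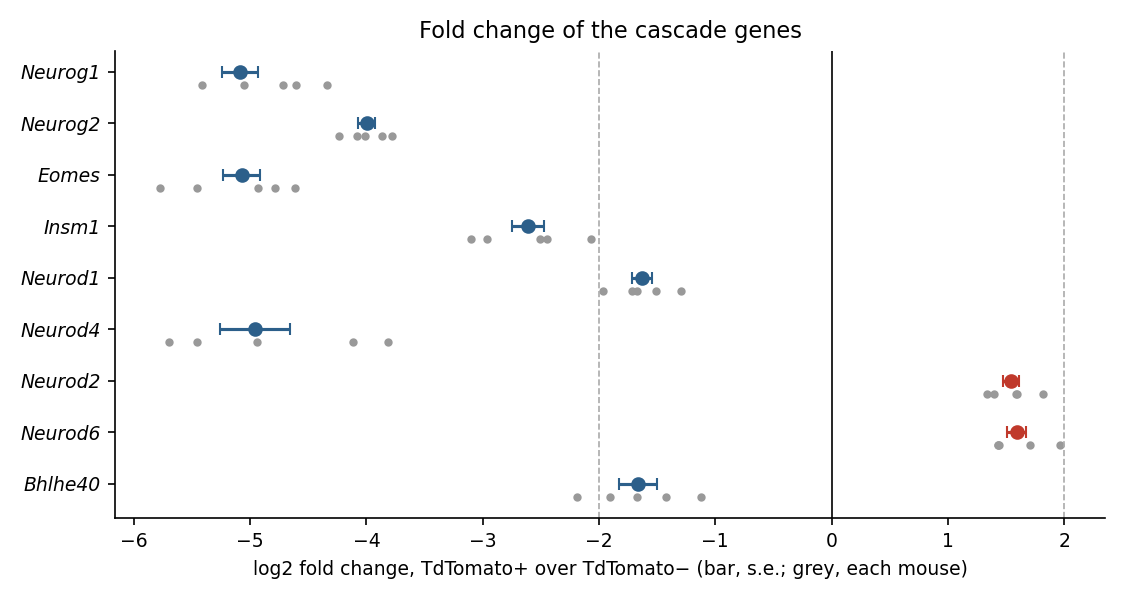
Log2 fold change of TdTomato+ over TdTomato− for each of the 9 genes, from edgeR with its s.e. as a bar, and the log2 ratio of CPM in each of 5 mice as grey points; dashed lines mark a log2 fold change of −2 and 2. Neurog1, Neurog2, Eomes and Neurod4 lie at −4.00 or below, Insm1, Neurod1 and Bhlhe40 between −2.61 and −1.63, and Neurod2 and Neurod6 at 1.55 and 1.59.

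*Neurod2* and *Neurod6* were the members that rose. *Neurod2* (chromosome 11, 98325415 to 98329648, minus strand) was at 358, 468, 406, 409 and 527 CPM in TdTomato− libraries and at 1263, 1230, 1230, 1225 and 1332 CPM in TdTomato+ libraries. *Neurod6* (chromosome 6, 55677822 to 55681263, minus strand) was at 327, 506, 467, 431 and 527 CPM in TdTomato− libraries and at 1275, 1371, 1256, 1404 and 1422 CPM in TdTomato+ libraries. For both genes every TdTomato+ library was more than 2 times above every TdTomato− library, and the TdTomato+ libraries were closer to each other than the TdTomato− libraries. The SD of log2 CPM was 0.051 for *Neurod2* and 0.082 for *Neurod6* in TdTomato+ libraries, against 0.214 and 0.272 in TdTomato− libraries.

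The 2 genes rose by nearly equal amounts, by 1.55 (s.e. 0.068, adjusted p = 6.4e-08) and 1.59 (s.e. 0.081, adjusted p = 1.6e-07) on the log2 scale. The log2 ratio of *Neurod6* to *Neurod2* per kilobase differed between TdTomato+ and TdTomato− libraries by a mean of 0.047 (SD 0.127), from −0.170 to 0.142 over 5 mice, so the difference lay within the spread between mice. Both were also abundant in TdTomato− cells. Ranked by CPM per kilobase among all annotated genes of the table, *Neurod6* was 20th in TdTomato+ and 72nd in TdTomato− libraries, and *Neurod2* was 37th and 142nd.

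Transcription factors of pyramidal neurons were higher along with them. All 8 of 8 rose and 4 were DEG, with a median log2 fold change of 1.86. *Mef2c*, an activity-regulated factor of neurons, was at 2.84 and *Sox5*, a factor of early-born deep-layer neurons, at 2.48. *Zbtb18*, a repressor downstream of the Neurogenins, rose by 0.93 and *Bcl11a*, a factor of deep-layer neurons, by 0.80. *Neurod2* and *Neurod6*, at 1.55 and 1.59, lay between these.

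The make-up of NeuroD expression differed between the populations, with smaller shares of *Neurod1* and *Neurod4* in TdTomato+ cells. Of the summed NeuroD level per kilobase, *Neurod6* made up 60.5% ± 1.22 in TdTomato+ and 56.1% ± 2.14 in TdTomato− libraries (mean ± SD, n = 5), and *Neurod2* 38.7% ± 1.34 and 37.1% ± 1.81. *Neurod1* made up 0.728% ± 0.177 in TdTomato+ against 6.21% ± 0.625 in TdTomato− libraries. *Neurod4* made up 0.589% to 0.678% in TdTomato− libraries and at most 0.0148% in TdTomato+ libraries. The *Neurod2* shares of the populations overlapped, whereas those of *Neurod1*, *Neurod4* and *Neurod6* did not. Within mice, the shares of *Neurod2* and *Neurod6* were both higher in the TdTomato+ library in 5 of 5, by 0.44 to 4.78 and by 0.582 to 6.14 percentage points. The shares sum to 100%, so a smaller share of *Neurod1* leaves larger shares to the others.

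**Figure D3:**
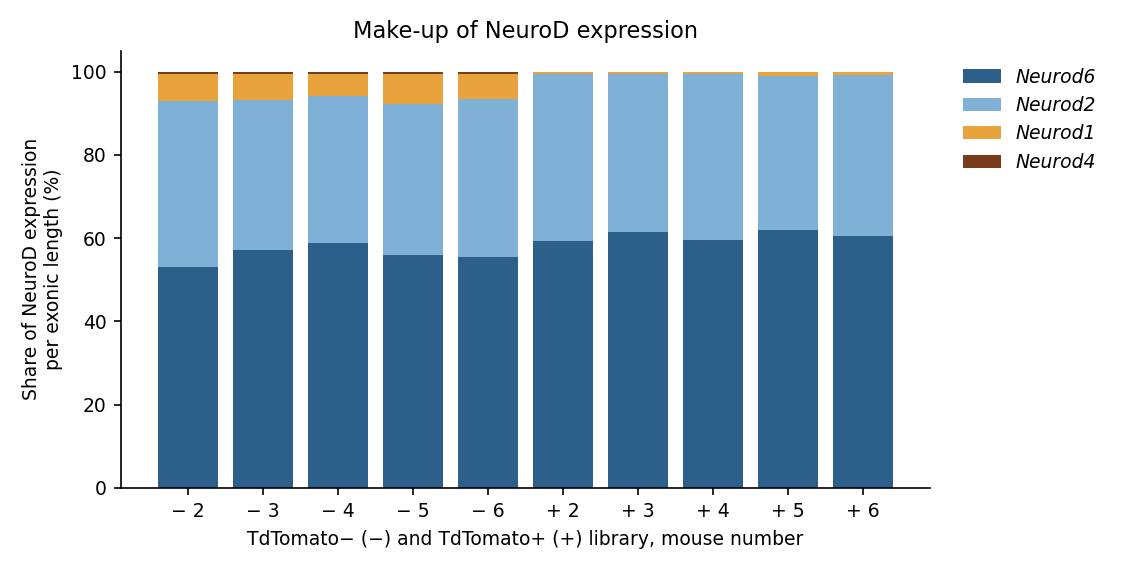
Share of the summed NeuroD expression, in CPM per kilobase of exonic length, that each of the 4 NeuroD genes made up in each library, in percent; the 5 TdTomato− libraries are on the left and the 5 TdTomato+ libraries on the right, by mouse number. Neurod1 takes 5.37% to 7.07% in TdTomato− libraries and 0.581% to 0.977% in TdTomato+ libraries, and Neurod4 is too small to see in the latter.

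Set side by side per kilobase, the members ran over different ranges in the populations. In TdTomato+ cells the order by mean CPM per kilobase was *Neurod6* at 626 ± 35.2, *Neurod2* at 400 ± 14.4, *Insm1* at 15.2 ± 5.27, *Neurod1* at 7.57 ± 2.09, *Neurog2* at 5.69 ± 1.45, *Eomes* at 2.62 ± 1.15, *Bhlhe40* at 0.561 ± 0.178, *Neurog1* at 0.252 ± 0.0730 and *Neurod4* at 0.0768 ± 0.0624. Neighbours in this order whose ranges over libraries overlapped were *Insm1* and *Neurod1*, *Neurod1* and *Neurog2*, and *Neurog1* and *Neurod4*. Within every TdTomato+ library, however, the first of each of these pairs was the higher. In TdTomato− cells the order was *Neurod6* at 210 ± 36.6, *Neurod2* at 138 ± 20.8, *Neurog2* at 90.1 ± 16.4, *Insm1* at 89.4 ± 7.63, *Eomes* at 84.2 ± 13.2, *Neurod1* at 23.1 ± 3.65, *Neurog1* at 8.70 ± 2.82, *Neurod4* at 2.38 ± 0.310 and *Bhlhe40* at 1.74 ± 0.197. There the ranges overlapped for *Neurod6* and *Neurod2*, for *Neurog2* and *Insm1*, for *Insm1* and *Eomes*, and for *Neurod4* and *Bhlhe40*. Within every TdTomato− library *Neurod6* exceeded *Neurod2*, by 1.34 to 1.68 times, whereas the order of the other pairs differed between libraries.

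The late members *Neurod2* and *Neurod6* stood further above earlier members in TdTomato+ cells. The ratio of *Neurod2* to *Neurog2* per kilobase had a median of 65.3 in TdTomato+ libraries and 1.51 in TdTomato− libraries. The ratio of *Neurod2* to *Neurod1* had medians of 61.0 and 6.13, and that of *Neurod6* to *Neurod1* of 97.6 and 9.20. All 3 ratios were higher in TdTomato+ cells in 5 of 5 mice. The ratio of *Neurod4* to *Neurog2* went the other way, with medians of 0.0108 in TdTomato+ and 0.0261 in TdTomato− libraries, and was higher in TdTomato+ cells in 0 of 5 mice, where *Neurod4* rests on 1 to 12 reads per TdTomato+ library.

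*Bhlhe40* (chromosome 6, 108660629 to 108666925, plus strand), a repressor that responds to the circadian clock, hypoxia and neuronal activity, was low in all libraries. It was at 9.70, 8.02, 7.14, 8.16 and 7.98 CPM in TdTomato− libraries and at 2.99, 2.08, 1.501, 3.00 and 3.62 CPM in TdTomato+ libraries. The populations did not overlap, and mouse 4 was the lowest in both. On the log2 scale the change was −1.66 (s.e. 0.16, adjusted p = 1.27e-05), with 21.0% to 45.3% of the partner's level kept. Of its exonic length, 2.51% overlaps *0610040F04Rik* on the opposite strand.

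Its paralog *Bhlhe41* was scarcer still, at 1.42 ± 0.810 CPM in the TdTomato+ population against 0.723 ± 0.294 CPM. It was higher in TdTomato+ cells in 4 of 5 mice, with a fitted log2 difference of 0.89 (s.e. 0.358, adjusted p = 0.0455), and the call was lost without mouse 2, 5 or 6, with adjusted p of 0.106, 0.161 and 0.145, and with DESeq2 (adjusted p = 0.101). Of 12 other clock genes including *Bhlhe41*, 7 rose, 2 fell and 3 were not called, with a median log2 fold change of 0.36. *Npas2*, a partner of the clock factor *Arntl*, rose most, at 4.53 (s.e. 0.415, adjusted p = 8.5e-06), from 0.364 ± 0.279 to 8.64 ± 3.55 CPM, followed by the repressor *Cry2* at 1.01. The nuclear receptor *Nr1d2* and the period gene *Per3* fell, at −1.01 and −0.84.

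Of 8 measured hypoxia genes, 3 rose, 3 fell and 2 were not called, with a median of −0.01, and with library size alone 5 were called lower. *Ndrg1*, a stress-response gene, was at 3.27 and *Bnip3*, a mitochondrial cell death and mitophagy gene, at 0.80, whereas the prolyl hydroxylase *Egln3* was at −2.04 and the glucose transporter *Slc2a1* at −1.44. Of 7 immediate early genes, 5 fell, 4 of them as DEG, and 2 rose. *Arc* and *Fosb* were lowest at −3.08 and −2.85, and *Junb* rose by 0.99 and *Nr4a1* by 0.34. The call of *Nr4a1* was lost without mouse 5 (adjusted p = 0.0654). The summed level of these 7 genes was 367 CPM in the TdTomato− library of mouse 2 and 88.2 to 116 CPM in the other 4, against 33.3 to 70.8 CPM in TdTomato+ libraries, and its part in the *Bhlhe40* result was not tested.

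**Figure D4:**
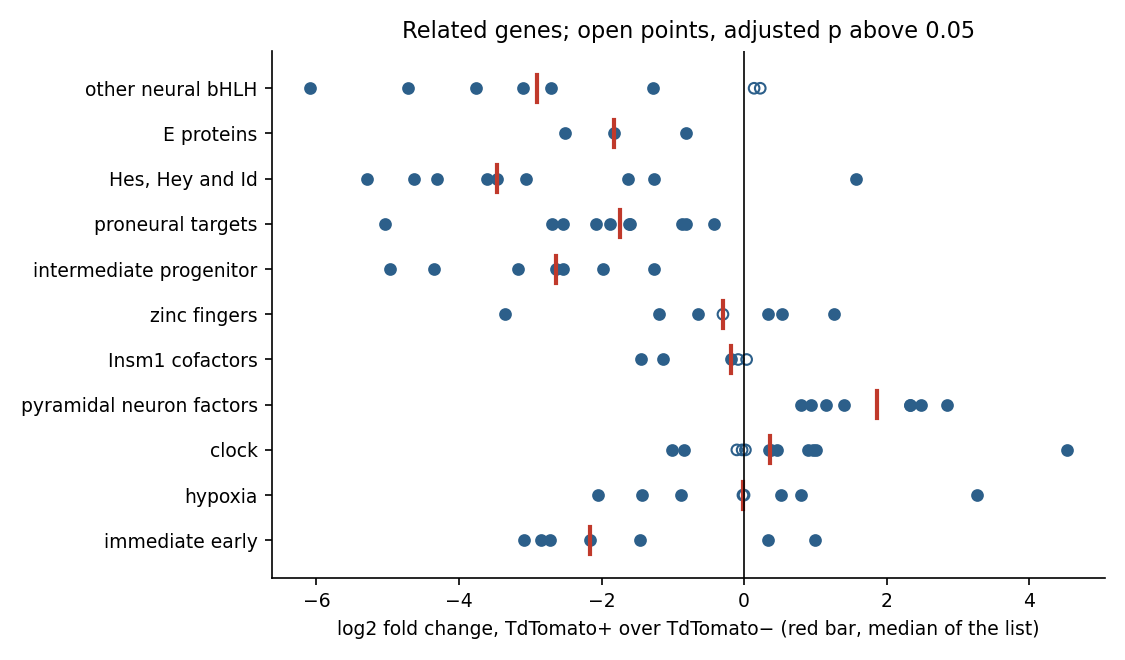
Log2 fold change of TdTomato+ over TdTomato− for the measured genes of 11 lists related to the series, with a red bar at the median of each list and open points for genes with an adjusted p above 0.05. The lists of bHLH inhibitors, proneural targets and intermediate progenitor genes lie to the left of 0 except Id2, and all 8 pyramidal neuron factors lie to the right.

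The TdTomato+ libraries of mice 5 and 6 held more of most of the falling members than those of mice 2, 3 and 4. Of the 7 members lower in TdTomato+ cells, 6 had their 2 highest TdTomato+ values in mice 5 and 6, and *Neurog1*, with mice 5 and 3 highest, was the exception. In TdTomato− libraries mice 5 and 6 were also the highest pair for 3 of these 6, *Eomes*, *Insm1* and *Neurod1*. This was noticed in the data and was not tested. The share of all genes with this pair highest is not given here, so the pattern cannot be called particular to these members. From the lowest to the highest TdTomato+ library, *Neurod4* differed 11.96 times on 1 to 12 reads, *Eomes* 3.15 times, *Bhlhe40* 2.41 times, *Insm1* 2.25 times, *Neurog1* 1.92 times, *Neurog2* 1.86 times and *Neurod1* 1.77 times, and *Neurod2* differed 1.09 times and *Neurod6* 1.13 times. In the same libraries of mice 2 to 6, the summed radial glia markers were 127, 162, 140, 157 and 174 CPM and the summed intermediate progenitor genes 66.7, 98.8, 103, 102 and 95.5 CPM. In neither of these were mice 5 and 6 the highest pair, which was mice 6 and 3 for the first and mice 4 and 5 for the second. The largest part of the first sum was *Vim*, at a mean of 70.9 CPM, and of the second *Pam*, at 33.7 CPM. Mice 5 and 6 were the highest pair in 4 of the 20 gene and marker lists. These were the 8 measured neural bHLH genes outside the members, of which *Bhlhe22* made up most, at 194, 136, 120, 229 and 238 CPM, the E proteins, mostly *Tcf4*, at 749, 593, 590.2, 790.0 and 872 CPM, the Hes, Hey and Id genes, mostly *Id2*, which rose, at 410, 363, 352, 438 and 453 CPM, and the microglia markers, at 0.680, 0.694, 0.795, 0.913 and 1.31 CPM. The part of other cells in this spread was not tested.

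**Figure D5:**
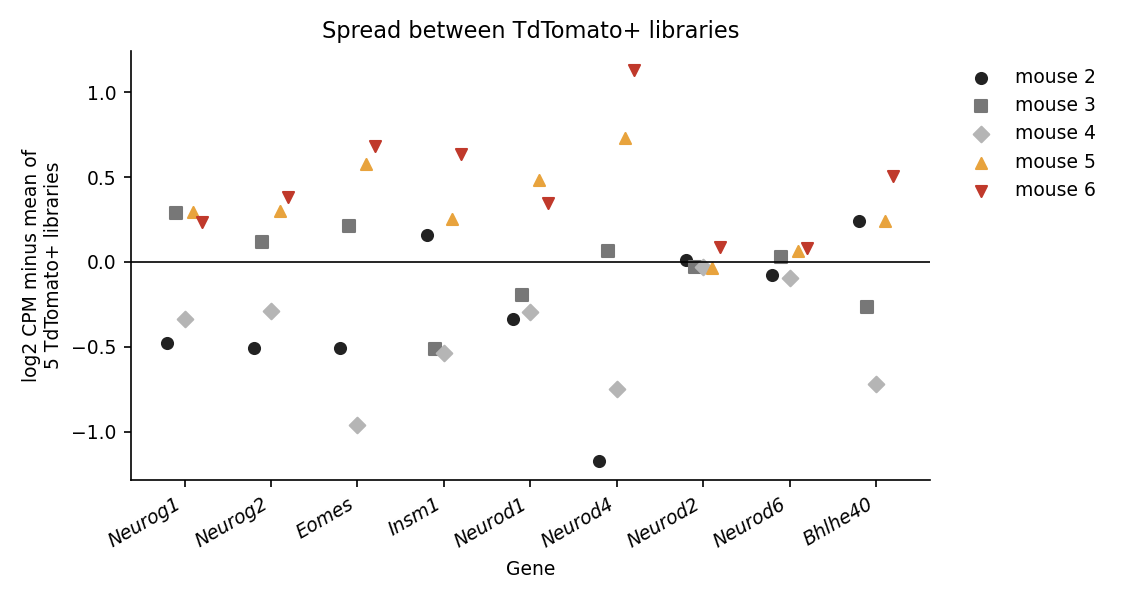
Log2 CPM of each gene in each TdTomato+ library minus the mean of the 5 TdTomato+ libraries, by mouse. Mice 5 and 6 lie above 0 for the 7 genes that are lower in TdTomato+ cells, up to 1.13 for Neurod4, whereas Neurod2 and Neurod6 stay between −0.10 and 0.09.

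Genes with profiles most like each member were taken by the Euclidean distance between log2 CPM profiles over the 10 libraries, each centred on its own mean, among 9785 genes with a mean log2 CPM of at least 3. The libraries share the 2 populations, so a small distance mostly reflects a like fold change. *Neurod2* was nearest to the semaphorin *Sema4d*, at 0.261, and then to *Neurod6*, at 0.303, and *Neurod6* to the phosphatase subunit *Ppp2r2b*, at 0.297, and then to *Neurod2*. *Insm1* was nearest to the LIM homeobox gene *Lhx2*, at 0.346, and *Neurog2* to the replication licensing gene *Cdt1*, at 0.585, and the dorsal patterning gene *Emx2*, at 0.599. *Neurod4* was nearest to *Tfap2c*, at 0.991, and then to *Eomes*, at 1.04, and *Neurog1* was also nearest to *Tfap2c*, at 1.03. *Eomes* was nearest to the endothelin receptor *Ednrb*, at 0.621, *Neurod1* to *Ccnjl*, at 0.418, and *Bhlhe40* to *Foxo4*, at 0.536.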

How the data were processed

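RNA of live TdTomato+ and TdTomato− cells from 5 mice was sequenced at 14.5 dpc. Tamoxifen had been given at 13.5 dpc. After trimming, the authors aligned the reads to GRCm38 with STAR (version 2.4.2a in the submitters' notes), kept unique alignments and deposited raw counts of reads per gene without normalization. The annotation release and strand setting are not given in the sources used here, and the library kit differs between labels and methods. The 14300 genes of the deposited count table were all used. edgeR 4.0.16 in R 4.3.3 was run with filterByExpr, which removed no gene, TMM, glmQLFit and glmQLFTest, the mouse as a block, and Benjamini-Hochberg adjustment. For a DEG, the adjusted p was at most 0.05 and the log2 fold change at least 2 in size. The fitted fold changes used a prior count of 0.125 and log2 CPM a prior count of 2. CPM was divided by the merged exonic length in GENCODE M21 for levels per kilobase.

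Mouse numbers pair the populations in the labels. Deviations from group means correlated at 0.186 to 0.316 across genes within a mouse and at −0.312 to 0.212 between mice. Whether a number is 1 embryo or a pooled litter is not given in the sources used here. With the mouse as a block, p-values measure how the difference between the populations varied over these mouse numbers. Same-population libraries differed by 4.59 to 33.4 times the counting noise (chi-square per degree of freedom), so none was a duplicate. On simulated counts for 14269 genes, 100% of 200 planted log2 changes of 3, a size above that of 5 members, were recovered and 0 unchanged genes were called DEG.

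The members, gene lists and marker lists were chosen with earlier results of these data known. Genes named are all members, every gene of a list with 6 or fewer measured and otherwise the 2 highest and 2 lowest log2 fold changes, plus *Nhlh1*, *Nhlh2*, *Bhlhe22*, *Bhlhe41*, *Hes6*, *Dll1*, *Dll3*, *Gadd45g* and *Btg2*, and the nearest profiles. Some results under this rule are not reported here. *Grem1*, *Cerkl*, *Gm26755*, *0610040F04Rik*, *St18* and *Rbfox3* are outside this rule. Alternatives were RLE, upper-quartile and no normalization factors, DESeq2 1.42.0, other count filters, no mouse block, TREAT, another prior count, robust estimation and each mouse left out.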

Additional observations from a re-analysis of the deposited data

How the results depend on the processing

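Each of the 9 members kept its direction under every alternative, and only TREAT, which tests against an absolute log2 fold change of 2 and so is stricter by construction, removed calls. Under TREAT, 273 genes were higher and 1077 lower, against 5424 and 5632 at an adjusted p of 0.05 or less and 457 and 1393 DEG. Among the members, 0 were then higher against 2, and *Neurod1*, *Neurod2*, *Neurod6* and *Bhlhe40* were no longer called. Of the 84 related genes measured, 6 were higher under TREAT against 24, and 24 were lower against 50. Leaving out each mouse in turn gave 446 to 468 DEG higher and 1365 to 1403 lower, 5106 to 5285 genes higher and 5303 to 5486 lower at the adjusted p, and 5 members DEG lower each time. The member with the widest range of log2 fold changes was *Neurod4*, from −5.36 to −4.75 over these refits and up to −4.60 with a prior count of 2. Without the replicate block, which follows the pairing of libraries by mouse, there were 461 DEG higher and 1385 lower, and no member's call changed. DESeq2 gave 470 and 1405. Library size alone moved the median log2 fold change of all genes from −0.01 to −0.18. Among related genes, *Bhlhe41* also lost its call with library size alone (adjusted p = 0.0982) and without the block (adjusted p = 0.0616), and *Nr4a1* with library size alone (adjusted p = 0.222), without the block (adjusted p = 0.198) and with DESeq2 (adjusted p = 0.0568), whereas *St18*, not called, was called lower without mouse 3 or 4 and with library size alone, at adjusted p of 0.0487, 0.0312 and 0.0401. The causes of these changes were not tested. Depth limits *Neurod4*, *Neurog1*, *Insm2*, *Olig1* and *Olig2*, among others, in TdTomato+ cells, where a library held 1 to 19 reads of each.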
